A study of Rattus norvegicus with 16 samples.

Results

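Cdk1, Pttg1, Uck2 and Cdkn1a are 4 of the 32552 genes counted in bulk RNA sequencing of rat abdominal wall under an implant, and they were selected on earlier results of these same libraries, by gene identifier. Their levels and differences are therefore given as descriptions, with no test. The 16 libraries formed 4 groups of 4: adhesive implant–tissue interfaces on day 3, non-adhesive interfaces on day 3, adhesive interfaces on day 14 and non-adhesive interfaces on day 14 post-implantation. All came from abdominal wall of Sprague Dawley rats labelled female and 12 weeks old, and all carried the same polyurethane mock device with its adhesive layer. The adhesive implant bonded to the tissue. The non-adhesive implant was the same construct swollen in buffered saline before surgery and held with sutures, so that adhesion and suturing cannot be told apart, and no library of unimplanted tissue was analysed here. The labels do not say whether each library is a separate rat, so the spread between libraries may be technical in part. In bulk tissue, fewer cells of a type and less RNA per cell cannot be told apart.

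The 4 genes relate to cell division in different ways. Cdk1 encodes the cyclin-dependent kinase that drives entry into mitosis. Pttg1 encodes securin, the inhibitor that holds separase inactive until the chromosomes are aligned and is then degraded at anaphase. Uck2 encodes a uridine-cytidine kinase, the first step of the salvage route that feeds pyrimidine nucleotides into RNA and DNA synthesis. Cdkn1a encodes p21, an inhibitor of cyclin-dependent kinases and a classic target of p53, and so acts against division while Cdk1 and Pttg1 act within it. After injury or implantation, division of fibroblasts, macrophages, endothelial cells and muscle precursors is part of early repair.

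In the coordinates of the deposited files, Cdk1 (ENSRNOG00000000632) lies at chr20:20576377-20591549 on the plus strand with 9 merged exon blocks of 1411 bases in all. Pttg1 (ENSRNOG00000003802) lies at chr10:29020049-29026002 on the minus strand, with 6 blocks and 1044 bases. Uck2 (ENSRNOG00000003917) spans chr13:85376716-85443976 on the minus strand, with 10 blocks and 1633 bases. Cdkn1a (ENSRNOG00000000521) spans chr20:6351458-6358864 on the plus strand, with 3 blocks and 1950 bases. No other annotated gene overlaps any of the 4, on either strand. The values count reads over all exons of a gene.

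The promoters of 3 of the genes are shown because Cdk1 and Pttg1 carry sequence elements typical of genes expressed late in the cell cycle. Cdkn1a instead carries a match to the p53 half-site consensus. Each line gives the 250 bases before the annotated start in RefSeq, 5′ to 3′ on the strand of the gene, in build GRCr8, which is not the build of the counts. Capitals mark TTTGAA (the core of the cell cycle homology region) and CCAAT on either strand in Cdk1 and Pttg1, and the match to the p53 half-site consensus in Cdkn1a.
Cdk1, chr20:19265043-19265292, plus strand: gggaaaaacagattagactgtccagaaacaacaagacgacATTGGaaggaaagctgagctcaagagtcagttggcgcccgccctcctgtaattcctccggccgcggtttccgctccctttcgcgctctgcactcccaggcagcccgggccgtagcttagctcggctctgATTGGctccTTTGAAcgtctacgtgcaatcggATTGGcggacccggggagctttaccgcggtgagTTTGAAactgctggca
Pttg1, chr10:28406327-28406576, minus strand: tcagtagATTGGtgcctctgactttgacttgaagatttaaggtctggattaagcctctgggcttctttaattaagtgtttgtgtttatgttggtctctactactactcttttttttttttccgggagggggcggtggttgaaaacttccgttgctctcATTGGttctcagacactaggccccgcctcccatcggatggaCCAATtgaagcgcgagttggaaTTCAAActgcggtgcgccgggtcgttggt
Cdkn1a, chr20:7150682-7150931, plus strand: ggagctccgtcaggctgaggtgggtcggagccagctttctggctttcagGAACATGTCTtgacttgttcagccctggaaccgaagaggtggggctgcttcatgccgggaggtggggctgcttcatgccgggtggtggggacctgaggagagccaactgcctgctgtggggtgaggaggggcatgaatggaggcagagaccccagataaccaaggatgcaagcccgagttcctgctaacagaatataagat
Read on both strands, the Cdk1 window held 2 TTTGAA and 3 CCAAT matches and the Pttg1 window held 1 and 3. TTTGAA occurred in 16.2% of 33469 rat promoter windows of this length, CCAAT in 34% and both together in 5.87%. The Uck2 window had no TTTGAA, 1 CCAAT and 5 matches to GGGCGG, a motif found in 30.5% of windows, of which a pair overlapped by 1 base; Cdk1 and Pttg1 each had 1 GGGCGG, not capitalised above. The Cdkn1a window held none of these motifs. Its single exact match to the p53 half-site consensus, read on both strands, lay at positions -201 to -192 from the start. Such a match was present in 6.64% of windows. Only exact matches were searched for. The bases directly after it, tgacttgttc, depart from the consensus at their first base and so were not marked. These matches are descriptions of sequence, not of binding.

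Library totals ranged from 18616084 to 24858976 counts on day 3 and from 13852126 to 16801635 on day 14, so that day cannot be told apart from depth or from any batch that went with it. Levels are given as CPM, the counts of a gene scaled to a fixed sequencing depth, after scaling by the trimmed mean of M-values (TMM), and levels of different genes are compared as RPKM, that is, CPM per 1000 exon bases. The TMM factors were 0.986 to 1.41 on day 3 and 0.619 to 1.03 on day 14. With library totals alone the median of all genes moved to -0.07 and -0.22 (log2) for the implant comparisons on days 3 and 14, and to -0.58 and -0.39 for day 14 against day 3 at adhesive and non-adhesive interfaces. On day 14, non-adhesive replicate 4 stood apart from its group in its tissue markers.

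Cdkn1a was the most abundant of the 4 genes per length in all 4 groups, Uck2 came second, and Cdk1 and Pttg1 were lowest. On day 3 Cdkn1a averaged 168 ± 12.3 RPKM at adhesive interfaces and 195 ± 53.3 RPKM at non-adhesive interfaces (SD, n = 4 each), above 97.2% and 97.5% of the 14601 genes tested. Uck2 averaged 42.3 ± 10.4 and 37.9 ± 11.8 RPKM in the same groups. Cdk1 averaged 7.58 ± 2.5 RPKM at adhesive and 15.8 ± 4.29 RPKM at non-adhesive interfaces, and Pttg1 3.78 ± 1.24 and 7.96 ± 1.09 RPKM. On day 14 Cdkn1a averaged 71.1 ± 22.5 RPKM at adhesive and 36.1 ± 8.71 RPKM at non-adhesive interfaces, and Uck2 8.44 ± 1.01 and 5.93 ± 0.379 RPKM. Cdk1 (1.90 ± 1.28 and 3.21 ± 1.64 RPKM) and Pttg1 (1.77 ± 0.517 and 1.64 ± 0.996 RPKM) had overlapping ranges within both implants on day 14. Library by library, the ratio of Cdk1 to Pttg1 RPKM was then 0.305, 1.6, 0.740 and 1.90 at adhesive interfaces, an order that varied, against 1.73, 1.95, 3.05 and 1.48 at non-adhesive interfaces, where Cdk1 was above Pttg1 in all 4, as it was in all 8 day 3 libraries. All 4 genes passed the filter on low counts in every fit.

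**Figure D1:**
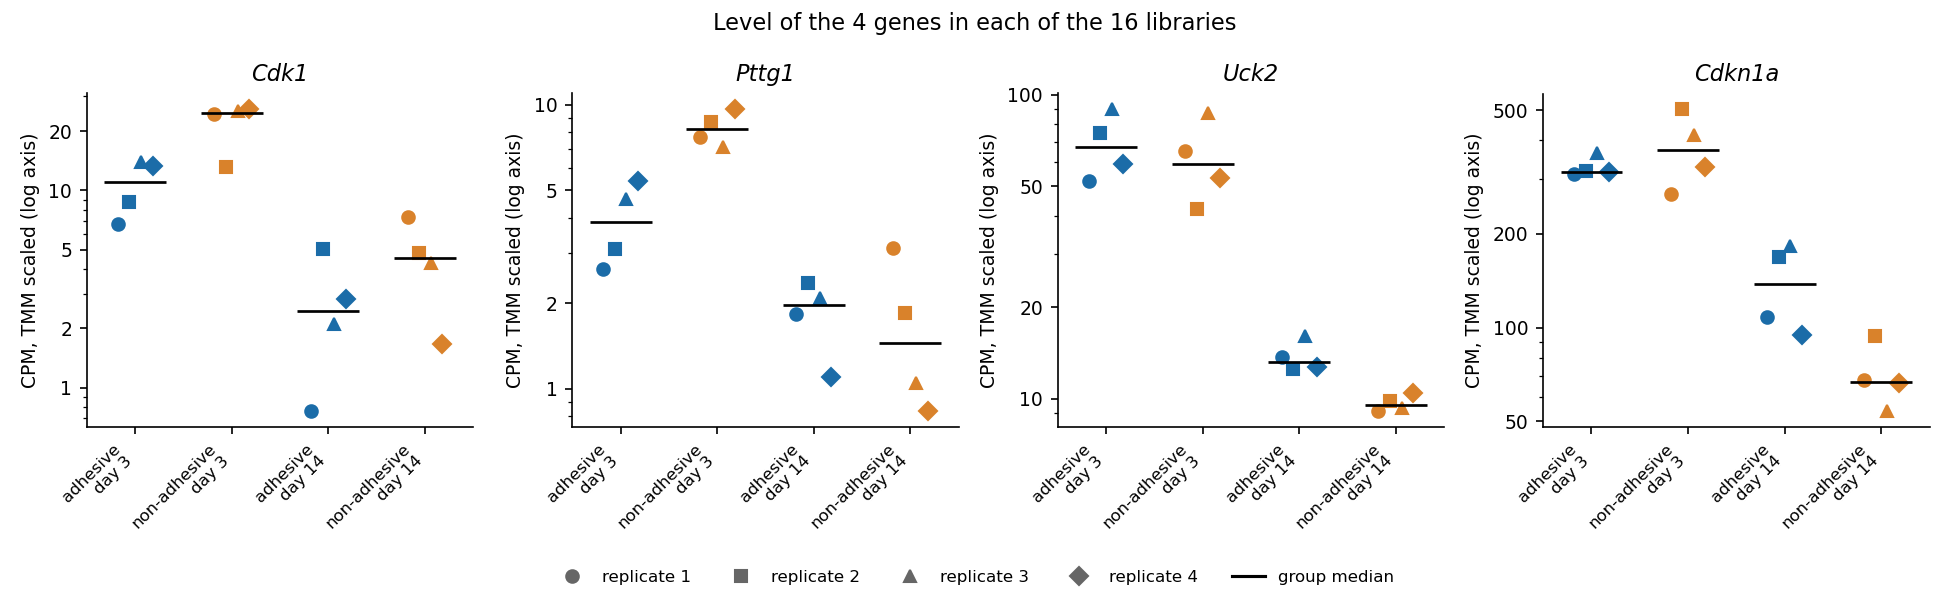
TMM-scaled CPM (log axis) of Cdk1, Pttg1, Uck2 and Cdkn1a in the 16 libraries, with the 4 groups of implant and day along the horizontal axis; symbols are replicates and black lines are group medians. All day 14 libraries lay below all day 3 libraries of the same implant for each gene, and on day 3 the adhesive libraries of Pttg1 (2.65 to 5.39 CPM) lay below all non-adhesive ones (7.11 to 9.71 CPM).

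The first comparison asks how the interface differs early, on day 3, between an adhered and a non-adhered implant. The mitotic pair, Cdk1 and Pttg1, averaged less than 50% as high at adhesive as at non-adhesive interfaces, whereas the ranges of Uck2 and Cdkn1a overlapped between implants. Cdk1, the mitotic kinase, was at 6.75, 8.73, 14.0 and 13.3 CPM in the 4 adhesive libraries, against 24.4, 13.2, 25.4 and 26 CPM in the non-adhesive ones. Non-adhesive replicates 1, 3 and 4 were above every adhesive library, and non-adhesive replicate 2 fell within the adhesive range. The fitted log2 fold change of Cdk1 was -1.05 ± 0.30 (SE, n = 4 each), and -1.23 without that library. Pttg1, encoding securin, was at 2.65, 3.10, 4.64 and 5.39 CPM in adhesive libraries, against 7.74, 8.69, 7.11 and 9.71 CPM in non-adhesive libraries. The groups did not overlap for Pttg1, with a log2 fold change of -1.06 ± 0.26. A gap of this kind, lower at adhesive interfaces, was present in 2.67% of 14223 genes tested.

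Uck2, the pyrimidine salvage kinase, was at 52.1, 74.9, 90.1 and 59.4 CPM in adhesive libraries on day 3, against 65.2, 42.0, 87.0 and 53.3 CPM in non-adhesive libraries. The ranges overlapped almost throughout, and the log2 fold change was 0.16 ± 0.25. Cdkn1a, the inhibitor p21, was at 312, 318, 363 and 317 CPM in adhesive libraries, against 269, 506, 418 and 328 CPM in non-adhesive libraries. The adhesive values were closely grouped inside the wider non-adhesive range, with a log2 fold change of -0.21 ± 0.20. Without non-adhesive replicate 2, which had the highest Cdkn1a and the lowest Cdk1 and Uck2 of its group, these changes were -0.05 for Cdkn1a and 0.01 for Uck2.

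A gene counted as called where its p, adjusted over all genes tested, was 0.05 or lower and its log2 fold change was 1 or more in size. On day 3 none of the 4 genes was called by edgeR, which called 0% of 14223 genes. Before adjustment 1022 of these had p under 0.05. limma-voom also called 0 genes and DESeq2 called 69. DESeq2 called Pttg1 alone among the 4, against 0.485% of all genes, and nothing is read from that count, since the genes were selected on these libraries. Over the 8 fits with 1 library left out, DESeq2 called Pttg1 in 4, losing it when adhesive replicate 1 or 2 or non-adhesive replicate 1 or 4 was dropped, and called Cdk1 in 2, when adhesive replicate 4 or non-adhesive replicate 2 was dropped. The edgeR log2 fold change of Pttg1 ranged from -1.27 to -0.91 over the same 8 subsets.

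Other genes of cell division and related pathways were read on day 3 from 7 pathway lists of 203 genes. Of these, 36 had a symbol and enough counts, so each list was read only in part. They were 6 of 61 mitosis, 16 of 58 DNA replication, 5 of 15 cohesin and 3 of 26 p53 target genes. From the other lists came 5 of 24 pyrimidine genes and 1 of 12 G1 genes, Myc. None of the 36 passed the test by edgeR or DESeq2, and 4 had an unadjusted edgeR p under 0.05. All 6 mitosis genes had negative fold changes, with a median log2 fold change of -0.64 beside -0.01 for all genes tested. Cenpf, a kinetochore protein, had -0.69 ± 0.34 (SE; edgeR adjusted p = 0.720), Kifc1, a minus-end kinesin of the spindle, -0.72 ± 0.30 (adjusted p = 0.680), and Aurka, the centrosomal Aurora kinase, -0.60 ± 0.17 (adjusted p = 0.596). Aurka did not overlap between implants: it ranged over 6.43 to 8.52 CPM in adhesive libraries and 9.36 to 11.9 CPM in non-adhesive libraries. Rfc4 (11.2 to 13.9 against 14.3 to 14.9 CPM) and Rfc5 (8.21 to 9.78 against 10.1 to 13.4 CPM) of the replication list also lay lower with no overlap. The other listed genes overlapped, and a gap of this kind was present in 2.67% of all genes tested. All 16 DNA replication genes were likewise negative, with a median of -0.28. Their most abundant members were Rpa1, a subunit of the single-strand binding protein (-0.16 ± 0.15; adjusted p = 0.853), Rnaseh2a, a subunit of ribonuclease H2 (-0.13 ± 0.21; 0.909), and Mcm7, a helicase subunit (-0.19 ± 0.13; 0.791).

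Genes related to the other members were mixed on day 3. The list for cohesin, the ring that separase opens, also held genes of related proteins. Its 5 genes had a median log2 fold change of 0.05, with Rad21 at -0.05 ± 0.12 and Smc1a at 0.14 ± 0.12. Pttg1ip of this list, which encodes a securin-interacting protein, was at -0.28 ± 0.29. The 3 p53 targets, Ccng1 (0.33 ± 0.26), Btg2 (0.17 ± 0.22) and Sesn1 (0.01 ± 0.33), had a median of 0.17. The 5 pyrimidine genes had a median of -0.28, led in abundance by the nucleoside diphosphate kinase Nme2 (-0.28 ± 0.17), the synthase Umps (-0.22 ± 0.12) and Nme1 (-0.43 ± 0.16). Myc, a driver of growth and G1 entry, was at -0.06 ± 0.26. All 3 p53 targets had positive fold changes, and the cohesin list was split, with 3 positive and 2 negative. With library totals alone the p53 targets were 2 positive and 1 negative, and the median of the cohesin list turned to -0.03.

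Markers of cell types that could divide were read beside these values, and the summed ranges of each list overlapped between implants on day 3. Of 20 listed fibroblast genes, 10 had a symbol, and all 10 were detected in every library. Their summed level ranged over 3569 to 10784 CPM (median 4404) in adhesive libraries and 5687 to 15622 CPM (median 13257) in non-adhesive libraries. The sum is weighted to the most abundant genes. On day 3 Col3a1 averaged 3122 and 6064 CPM at adhesive and non-adhesive interfaces, Col1a1 958 and 2959 CPM, and Pdgfra 66.1 and 126 CPM. Dpt (56.8 to 140 against 154 to 206 CPM) and Eln (49.9 to 134 against 148 to 277 CPM) did not overlap between implants, and the other fibroblast genes read did. A gap of this kind, lower at adhesive interfaces, was present in 2.67% of genes tested. The library with the lowest fibroblast sum among non-adhesive ones was replicate 2, which also had the lowest Cdk1 but the second highest Pttg1 (8.69 CPM) of its group, and the lowest among adhesive ones was replicate 1, likewise the lowest for Cdk1 and Pttg1. Of 30 leukocyte genes, 3 had a symbol (Ptprc, Cybb and Ncf1), and their sum ranged over 256 to 642 CPM (median 515) in adhesive and 212 to 497 CPM (median 312) in non-adhesive libraries. The endothelial sum over 3 of 14 genes was 50.6 to 67.8 CPM in adhesive and 33.8 to 66.9 CPM in non-adhesive libraries, and the myogenic precursor gene Myf5 was at 6.59 to 20.9 and 7.25 to 21.8 CPM. The part of these cell types in the Cdk1 and Pttg1 values was not tested.

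**Figure D2:**
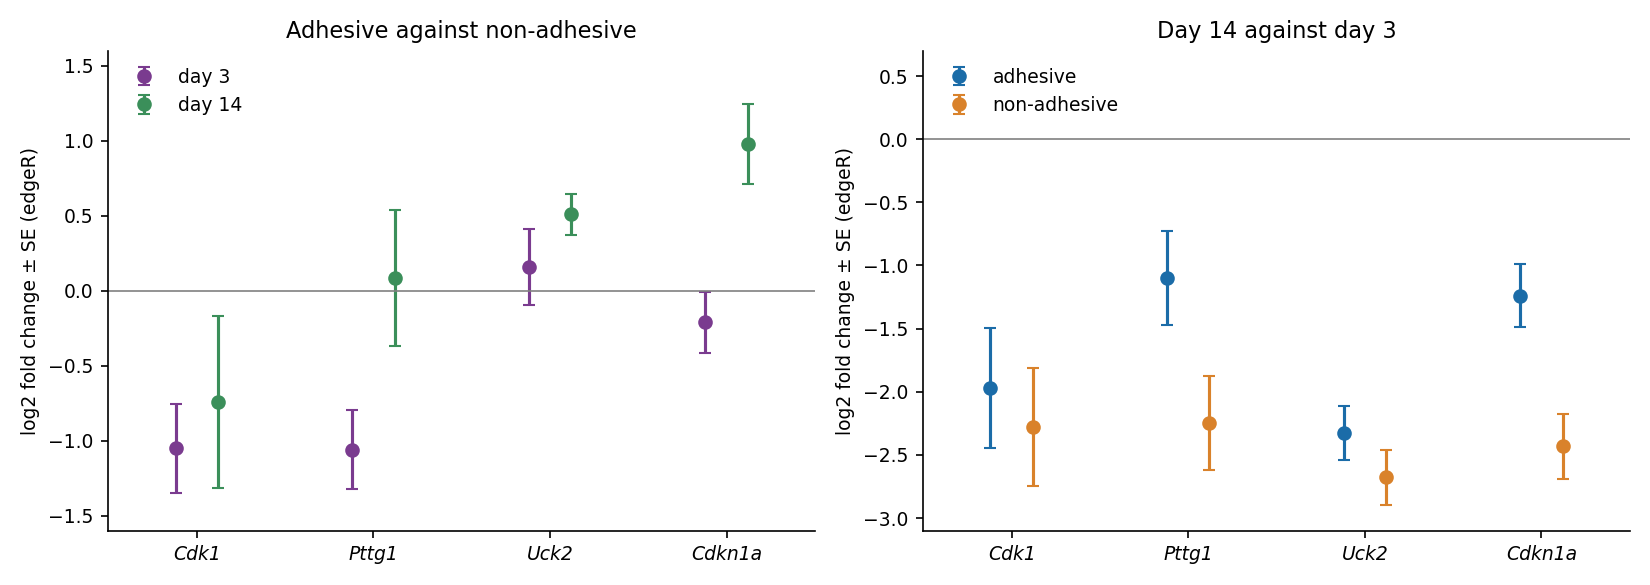
Log2 fold change ± SE (edgeR, n = 4 libraries per group) of the 4 genes; left, adhesive against non-adhesive on days 3 and 14; right, day 14 against day 3 at adhesive and non-adhesive interfaces. Cdk1 and Pttg1 were at -1.05 and -1.06 on day 3, Cdkn1a was at 0.98 on day 14, and all 8 values on the right were negative, from -2.68 to -1.10.

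By day 14 the arrangement differed: Cdkn1a and Uck2 averaged higher at adhesive interfaces, Cdk1 averaged lower with overlapping ranges, and Pttg1 overlapped as well. Cdkn1a was at 108, 169, 184 and 94.3 CPM in adhesive libraries, against 68.0, 94.1, 53.7 and 66.1 CPM in non-adhesive libraries. No value overlapped, but the lowest adhesive and the highest non-adhesive library nearly met, and the log2 fold change was 0.98 ± 0.26. Uck2 was at 13.7, 12.6, 16.1 and 12.7 CPM in adhesive libraries, against 9.09, 9.82, 9.32 and 10.5 CPM in non-adhesive libraries. The 4 adhesive libraries were all higher, with a log2 fold change of 0.51 ± 0.14, and each group was narrow. A gap with adhesive higher was present in 4.54% of 13557 genes tested.

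Without non-adhesive replicate 4 the log2 fold changes were 0.93 for Cdkn1a and 0.53 for Uck2. The gaps depended on the scaling. With CPM from library totals alone, Cdkn1a ranged over 72.3 to 155 CPM in adhesive and 40.9 to 93.8 CPM in non-adhesive libraries, and Uck2 over 9.17 to 12.7 and 6.49 to 9.79 CPM, so that both overlapped. The log2 ratios of the means were then 0.79 and 0.32, against a median of -0.22 for all genes in the fit with that scaling.

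Cdk1 was at 0.757, 5.07, 2.09 and 2.82 CPM in adhesive libraries on day 14, against 7.29, 4.84, 4.29 and 1.66 CPM in non-adhesive libraries. The lowest value of each group fell below all values of Cdk1 on day 3, and the groups overlapped, with a log2 fold change of -0.74 ± 0.57. Dropping adhesive replicate 2 gave -1.24, dropping adhesive replicate 1 gave -0.45, and dropping non-adhesive replicates 1 or 4 gave -0.41 or -1.01. Pttg1 was at 1.84, 2.35, 2.09 and 1.10 CPM in adhesive libraries, against 3.13, 1.84, 1.04 and 0.831 CPM in non-adhesive libraries. The adhesive libraries lay within the wider non-adhesive range, at a log2 fold change of 0.08 ± 0.45, which turned negative with library totals alone (-0.16) and without adhesive replicate 2 (-0.06), non-adhesive replicate 3 (-0.10) or non-adhesive replicate 4 (-0.14). Counts were small here: the lowest Cdk1 value rested on 7 reads, with an exact Poisson interval of 0.304 to 1.56 CPM at 95%, and the lowest Pttg1 value on 8 reads, with 0.359 to 1.64 CPM. These intervals cover counting error only.

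None of the 4 genes was called on day 14 by edgeR, which called 0.266% of genes, or 0.273% with no limit on the fold. DESeq2 called none of the 4 either, against 3.5% of genes, and with no limit on the fold it passed Uck2 and Cdkn1a, against 6.8% of genes; nothing is read from these counts. With 1 library left out and no limit on the fold, Uck2 passed DESeq2 in 2 of 8 fits and Cdkn1a in 4 of 8, in 3 of which it was also past the limit. Cdkn1a was lost without adhesive replicate 2 or 3 or non-adhesive replicate 1 or 3, and Uck2 was kept only without adhesive replicate 2 or non-adhesive replicate 4.

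The other listed genes showed no passing change on day 14 either. Of 35 listed genes tested, 0 passed by edgeR or by DESeq2, 4 had an unadjusted edgeR p under 0.05, and 2 passed edgeR without non-adhesive replicate 4. All 6 mitosis genes were again negative, with a median log2 fold change of -0.35 beside -0.04 for all genes: Cenpf was at -0.70 ± 0.62 (SE; edgeR adjusted p = 0.643), Kifc1 at -0.68 ± 0.53 (0.598) and Aurka at -0.24 ± 0.26 (0.705). The 15 replication genes had a median of -0.04, with 10 negative, and Rpa1 was at 0.15 ± 0.19, Rnaseh2a at 0.10 ± 0.23 and Mcm7 at 0.21 ± 0.16. Ccng1, the p53 target cyclin G1 that was by far the most abundant of the list, was at 0.74 ± 0.32 (adjusted p = 0.301), beside Btg2 at 0.18 ± 0.25 and Sesn1 at -0.12 ± 0.18. None of these 3 other p53 targets passed. Of the cohesin list, Rad21 was at 0.07 ± 0.12, Pttg1ip at -0.09 ± 0.32 and Smc1a at 0.27 ± 0.11. Nme2 (-0.01 ± 0.25), Umps (-0.25 ± 0.17) and Nme1 (-0.17 ± 0.16) of the pyrimidine list, and Myc (-0.34 ± 0.30), did not pass.

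Tissue markers on day 14 were read in the same way. The fibroblast sum ranged over 2303 to 12857 CPM (median 5056) in adhesive libraries and 2991 to 20861 CPM (median 19187) in non-adhesive libraries, with non-adhesive replicate 4 the lowest of its group and the other non-adhesive libraries at 18616 CPM or more. Within this list Fmod (3.40 to 7.04 against 17.0 to 37.7 CPM) and Eln (57.8 to 193 against 248 to 1631 CPM) did not overlap with all libraries kept. The other fibroblast genes read overlapped. A gap with adhesive lower was present in 557 of 13557 genes tested. The muscle fibre sum, over Mb and Eno3 of 25 listed genes, ranged over 12096 to 20950 CPM in adhesive and 8176 to 21878 CPM in non-adhesive libraries, and the leukocyte sum over 256 to 532 and 118 to 578 CPM. Without non-adhesive replicate 4 the non-adhesive ranges were 8176 to 9152 CPM for muscle fibre, below all adhesive libraries, and 338 to 578 CPM for leukocytes. Mb alone did not overlap even with that library kept, at 6411 to 9145 CPM in adhesive and 2054 to 6226 CPM in non-adhesive libraries, whereas Eno3 did. Mb and Eno3, as markers of the labelled muscular wall, were detected in every library. Myf5, the one myogenic precursor gene read, ranged over 4.22 to 6.36 and 1.47 to 4.67 CPM, and the endothelial sum over 48.9 to 63.4 and 53 to 81.4 CPM. The mast cell, adipocyte and erythroid lists had 1 gene each with a symbol. The adipocyte gene Adipoq ranged over 1.84 to 19.8 CPM in adhesive and 32.3 to 313 CPM in non-adhesive libraries, with no overlap (log2 fold change -3.51 ± 0.89, SE; edgeR adjusted p = 0.124). The mast cell gene Kit ranged over 3.21 to 7.12 CPM in adhesive and 4.98 to 20.1 CPM in non-adhesive libraries (-1.85 ± 0.46; 0.120), and 19.0 to 20.1 CPM in non-adhesive libraries without replicate 4. The erythroid gene Alas2 ranged over 0.530 to 1.73 and 0.546 to 4.88 CPM. Neither Adipoq nor Kit passed edgeR, whereas DESeq2 gave adjusted p = 0.000653 and 0.00386. The lists of mesothelium and of other CDK inhibitors had 0 genes with a symbol. The part of these cell types in Cdkn1a and Uck2 was not tested.

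The largest differences of the 4 genes were between days. At adhesive interfaces, day 14 libraries were lower than day 3 libraries for all 4 genes with no overlap, and the same was true at non-adhesive interfaces. Uck2 had the greatest change: its mean was 13.8 ± 1.65 CPM on day 14 and 69.1 ± 16.9 CPM on day 3 at adhesive interfaces (SD, n = 4 each), a log2 fold change of -2.33 ± 0.22 (SE). At non-adhesive interfaces its mean was 9.68 ± 0.619 CPM on day 14 and 61.9 ± 19.2 CPM on day 3, a log2 fold change of -2.68 ± 0.22. Uck2 was thus about 5.02 times lower on day 14 at adhesive interfaces and 6.40 times lower at non-adhesive interfaces.

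Cdk1 averaged 2.69 ± 1.81 CPM on day 14 and 10.7 ± 3.52 CPM on day 3 at adhesive interfaces, with a log2 fold change of -1.97 ± 0.48. At non-adhesive interfaces it averaged 4.52 ± 2.31 CPM on day 14 and 22.2 ± 6.05 CPM on day 3, with -2.28 ± 0.46. The mitotic kinase was thus lower on day 14 by 3.91 times at adhesive and 4.85 times at non-adhesive interfaces. Pttg1 averaged 1.84 ± 0.540 CPM on day 14 and 3.94 ± 1.29 CPM on day 3 at adhesive interfaces, with -1.10 ± 0.37, and 1.71 ± 1.04 CPM on day 14 and 8.31 ± 1.14 CPM on day 3 at non-adhesive interfaces, with -2.25 ± 0.37. Its levels overlapped between implants on day 14 and did not on day 3.

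Cdkn1a averaged 139 ± 44.0 CPM on day 14 and 328 ± 23.9 CPM on day 3 at adhesive interfaces, with a log2 fold change of -1.24 ± 0.25. At non-adhesive interfaces it averaged 70.5 ± 17.0 CPM on day 14 and 380.0 ± 104 CPM on day 3, with -2.43 ± 0.26. The cell cycle inhibitor was thus lower on day 14 together with the other 3 genes, by 2.36 times at adhesive and 5.39 times at non-adhesive interfaces. The adhesive and non-adhesive day comparisons share no library, but both came from 1 fit of all 16 libraries with a shared estimate of the spread. A gap between days, lower on day 14, was present in 12.9% of genes at adhesive interfaces and 8.92% at non-adhesive interfaces, and all 4 gaps at each interface held with library totals alone.

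Of the 4 genes, edgeR called 3 at adhesive interfaces (Cdk1, Uck2 and Cdkn1a), against 8.12% of 14601 genes, and all 4 at non-adhesive interfaces, against 9.07%, counts that follow in part from the selection and from which nothing is read. Pttg1 at adhesive interfaces was called in 3 of 16 fits that left out 1 library (without adhesive day 3 replicate 1, or non-adhesive day 14 replicate 1 or 4). DESeq2 called all 4 genes at both interfaces, against 11.3% and 11.6% of genes. With library totals alone the log2 fold changes were more negative, for example -1.68 for Pttg1 at adhesive interfaces, and the share of called genes that were higher on day 14 was 11.4% of 2602 against 54% of 1186 with TMM at adhesive interfaces, and 20% of 1731 against 58.6% of 1325 at non-adhesive interfaces.

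The listed genes that passed between days were mostly lower on day 14. At adhesive interfaces 11 of 36 passed as lower and 2 as higher by edgeR, against 7.46% and 7.43% of all genes. Among the 11 lower genes were the p53 target Btg2, Umps of the pyrimidine list and Myc, given below. Of the 6 mitosis genes, 4 fell, namely Cenpf (-1.77 ± 0.53; edgeR adjusted p = 0.0366), Kifc1 (-1.71 ± 0.45; 0.0237), Nuf2, a kinetochore protein of the Ndc80 complex (-1.71 ± 0.44; 0.0208), and Aurka (-0.89 ± 0.20; 0.0131). Nek2, a centrosomal kinase (-1.67 ± 0.66), and Pkmyt1, the kinase that holds Cdk1 inactive before mitosis (-0.87 ± 0.41), did not pass. Of the 16 replication genes, 4 fell: Pole2, a subunit of the leading-strand polymerase (-2.08 ± 0.53; 0.0197), Mcm6, a helicase subunit (-1.26 ± 0.38; 0.0375), Cdca7 (-1.19 ± 0.38; 0.0454) and the clamp loader subunit Rfc4 (-0.48 ± 0.15; 0.0429). Rpa1 rose, at 1.14 ± 0.18 (0.00228), and its function extends to DNA repair.

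These list counts at adhesive interfaces were sensitive to single libraries. Mitosis genes passing as lower numbered 1 without adhesive day 3 replicate 3, or without adhesive day 14 replicate 3 or 4, and 2 without adhesive day 3 replicate 2 or adhesive day 14 replicate 1. Replication genes passing as lower numbered 0 without adhesive day 14 replicate 1, 3 or 4, 1 without adhesive day 3 replicate 2, 3 or 4, and 2 without non-adhesive day 14 replicate 2. Aurka passed in all 16 such fits, Nuf2 in 13 and Rpa1 in 16. The least negative log2 fold changes over the 16 fits were -1.50 for Cenpf, -1.52 for Kifc1 and -1.51 for Nuf2.

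At non-adhesive interfaces 15 of 36 passed as lower and 1 as higher, against 8.87% and 8.67% of all genes. All 6 mitosis genes fell, led by Nek2 (-1.94 ± 0.64; edgeR adjusted p = 0.0496), Nuf2 (-1.94 ± 0.43; 0.00908), Cenpf (-1.76 ± 0.51; 0.0304) and Kifc1 (-1.75 ± 0.44; 0.0165). Of the replication genes 5 fell, among them Polq, a repair polymerase (-2.0 ± 0.56; 0.0266), Mcm6 (-1.20 ± 0.37; 0.0380), and the clamp loader subunits Rfc3 (-0.58 ± 0.19; 0.0431) and Rfc4 (-0.55 ± 0.15; 0.0228), and Rpa1 rose (0.83 ± 0.18; 0.00837). Mitosis genes passing numbered 3 without non-adhesive day 3 replicate 1 or non-adhesive day 14 replicate 3, and replication genes passing as lower numbered 0 without non-adhesive day 14 replicate 3, 1 without non-adhesive day 3 replicate 1 or non-adhesive day 14 replicate 2, and up to 8 without adhesive day 3 replicate 1 or non-adhesive day 3 replicate 2. Nuf2, Kifc1 and Aurka passed in all 16 such fits, and Nek2, whose groups overlapped, in 4.

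The lists closest to Pttg1, Cdkn1a and Uck2 held few genes that passed between days. None of the 5 genes of the cohesin list passed edgeR at either interface, with 0 and 1 at an unadjusted p under 0.05. DESeq2 passed 1 as lower at non-adhesive interfaces. Rad21 was at 0.02 ± 0.11 and -0.10 ± 0.11, Pttg1ip at 0.00 ± 0.32 and -0.20 ± 0.32, and Smc1a at 0.11 ± 0.10 and -0.02 ± 0.10 at adhesive and non-adhesive interfaces. Of the 3 other p53 targets, Btg2, an antiproliferative gene, fell by 0.97 ± 0.25 and 0.98 ± 0.25 on the log2 scale (SE; edgeR adjusted p = 0.0203 and 0.0163), whereas Ccng1 rose at adhesive interfaces (1.19 ± 0.31; 0.0208) and was at 0.78 ± 0.30 at non-adhesive interfaces (0.0870), beside Sesn1 at 0.64 ± 0.29 and 0.77 ± 0.29. These 3 p53 targets thus did not move one way between days. Beside this, the muscle fibre sum had medians of 15608 CPM on day 14 and 2016 CPM on day 3 at adhesive interfaces, and 8748 CPM on day 14 and 1965 CPM on day 3 at non-adhesive interfaces, whose part was not tested. Of the pyrimidine genes Umps fell at both interfaces (-0.51 ± 0.14 and -0.48 ± 0.14; 0.0243 and 0.0261) and Nme1 at non-adhesive interfaces (-0.59 ± 0.15; 0.0175), beside -2.33 and -2.68 for Uck2. Myc fell at both, by 1.62 ± 0.29 and 1.34 ± 0.29 on the log2 scale (0.00439 and 0.00804).

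**Figure D3:**
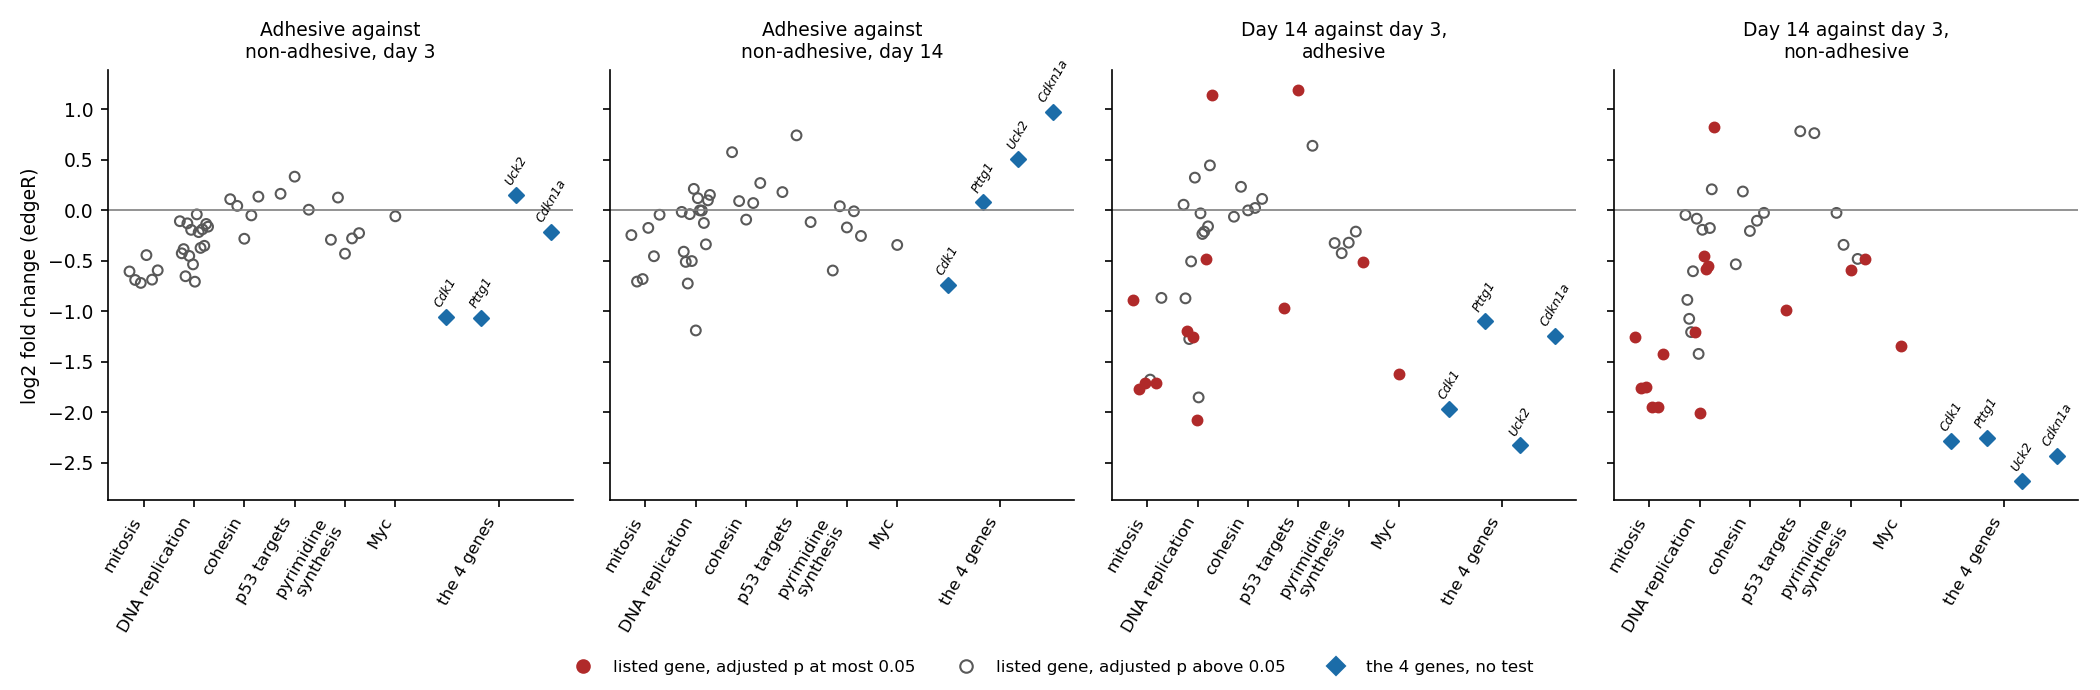
Log2 fold change (edgeR) of each listed gene with a symbol, by pathway list, and of the 4 genes (diamonds) in the implant comparisons on days 3 and 14 and the day comparisons at adhesive and non-adhesive interfaces; filled circles passed an adjusted p of at most 0.05. No listed gene passed in the implant comparisons, and 13 of 36 and 16 of 36 passed between days at adhesive and non-adhesive interfaces.

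Whether the implant effect differs between days was described by the difference of the log2 fold changes, day 14 minus day 3. It was 1.19 ± 0.35 (SE, 16 libraries) for Cdkn1a and 1.15 ± 0.52 for Pttg1, and 0.35 ± 0.29 for Uck2 and 0.31 ± 0.65 for Cdk1. Positive values mean that the adhesive level was higher relative to the non-adhesive level on day 14 than on day 3. For Pttg1 the adhesive libraries were lower on day 3 and overlapped on day 14, and for Cdkn1a they overlapped on day 3 and were higher on day 14. None of the 4 was called by edgeR, which called 0.00685% of genes, 1 gene of 14601, and DESeq2 called none of the 4 either, against 0.171% of genes. The Cdk1 value turned to -0.19 without adhesive day 14 replicate 2 and was 0.07 without non-adhesive day 14 replicate 4, whereas the others stayed positive in all 16 fits that left out 1 library. Of the 36 listed genes 0 passed, with 0 at an unadjusted p under 0.05, so that a difference between days was not detectable for them.

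The balance between the inhibitor and the kinase was described per length in each library. On day 3 the ratio of Cdkn1a to Cdk1 RPKM was 33.5, 26.4, 18.8 and 17.2 in adhesive libraries, against 7.99, 27.7, 11.9 and 9.11 in non-adhesive libraries. Non-adhesive replicate 2 again fell inside the adhesive range, while the other non-adhesive libraries were below it. On day 14 the ratio was 104, 24, 63.5 and 24.2 in adhesive libraries, against 6.74, 14.1, 9.06 and 28.8 in non-adhesive libraries, where replicate 4 was the library that overlapped. The medians were 22.6 at adhesive and 10.5 at non-adhesive interfaces on day 3, and 43.8 and 11.6 on day 14, or 9.06 at non-adhesive interfaces on day 14 without replicate 4, when the groups no longer overlapped. Scaling between libraries cancels in this ratio. The highest ratio rests on the 7 Cdk1 reads of adhesive day 14 replicate 1.

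**Figure D4:**
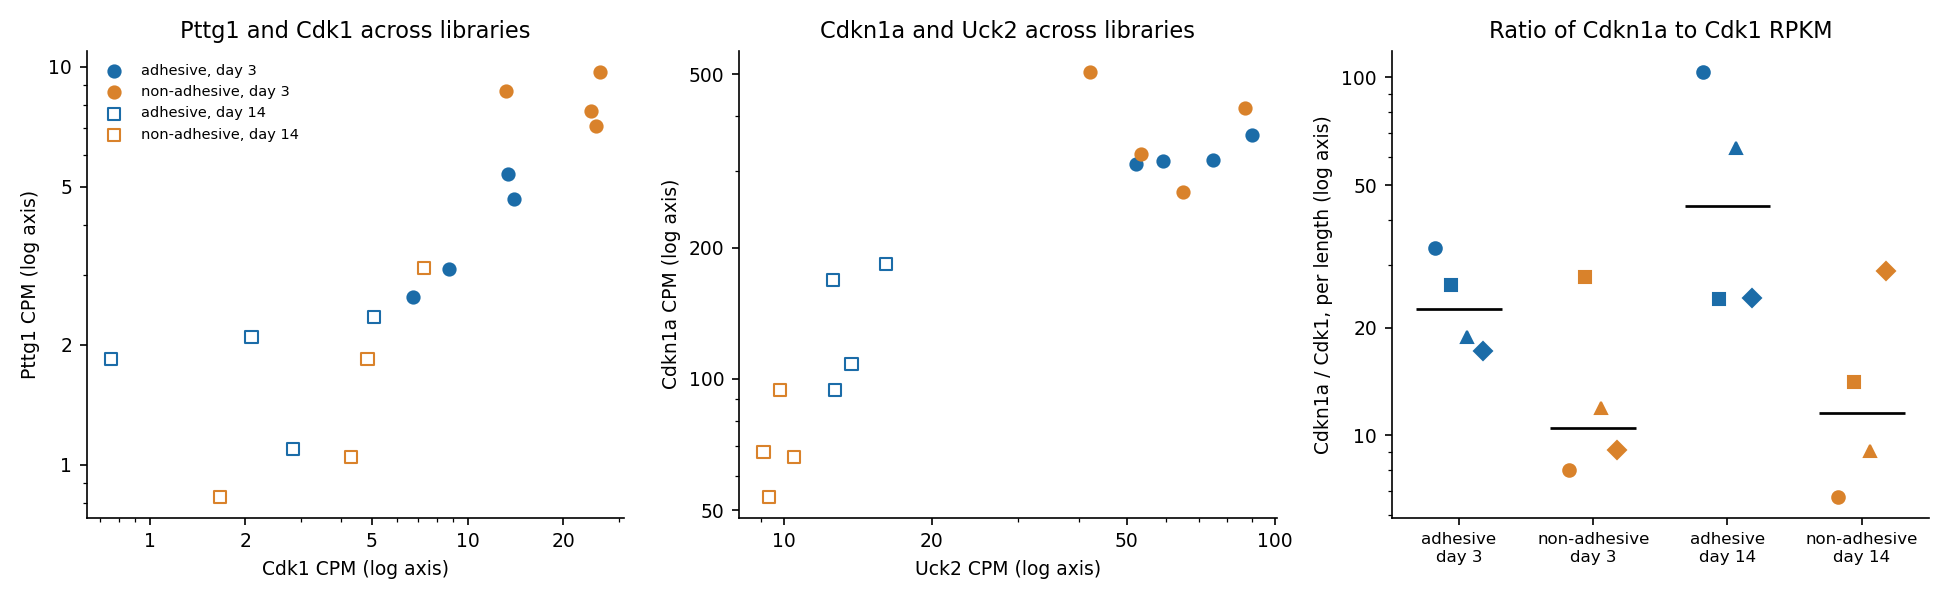
Pttg1 against Cdk1 CPM and Cdkn1a against Uck2 CPM in the 16 libraries (log axes; filled circles day 3, open squares day 14), and the Cdkn1a to Cdk1 ratio per length in each library with group medians as lines (symbols as replicates 1 to 4). All day 14 libraries lay below all day 3 libraries for both Uck2 and Cdkn1a, which does not hold for Cdk1 and Pttg1 across implants, and the median ratio was 43.8 at adhesive and 11.6 at non-adhesive interfaces on day 14.

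Apart from the differences between groups, the 4 genes varied together only in part. After the mean of each group was taken away from the log2 CPM, the residuals of Cdk1 and Pttg1 over 16 libraries had a Pearson r of 0.53 and a Spearman rho of 0.65, a description that shares library and depth, and r was 0.37 without non-adhesive day 14 replicate 4. Pttg1 and Cdkn1a had a residual r of 0.42. Uck2 and Cdkn1a, which both separate by day, had a residual r of 0.06, Cdk1 and Uck2 0.12, Cdk1 and Cdkn1a 0.14 and Pttg1 and Uck2 -0.05. Without non-adhesive day 14 replicate 4 these were 0.45 for Pttg1 and Cdkn1a, 0.06 for Uck2 and Cdkn1a, 0.23 for Cdk1 and Uck2, 0.13 for Cdk1 and Cdkn1a and 0.01 for Pttg1 and Uck2. Within groups, then, a library high in one gene of the last 4 pairs was not regularly high in the other.

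The genes most like each member were named among 1849 genes with a symbol and a mean of at least 1 CPM, by Pearson r of log2 CPM over the 16 libraries, a measure that includes the difference between days. For Cdk1 they were Nuf2 (0.99), Kifc1 (0.96) and Cenpf (0.95). Within groups, on residuals, they were Nuf2 (0.98), Poglut1, a protein glucosyltransferase (0.93), and Col1a1, a chain of type I collagen (0.89). Nuf2 thus followed Cdk1 in nearly every library, and ranged over 5.02 to 8.98 CPM at adhesive and 5.92 to 13.2 CPM at non-adhesive interfaces on day 3, and 0.757 to 3.64 and 1.14 to 4.11 CPM on day 14. Col1a1 belongs to the fibroblast list described above, and a residual r of this size was reached or passed by 40 of all 14601 genes tested.

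For Pttg1 the closest included Pkmyt1 (0.90) and Nme1 (0.86), and on residuals they were the integrin gene Itga6 (0.80), Gatm, an enzyme of creatine synthesis (0.76), and Pkmyt1 (0.76). Pkmyt1 was close on both measures, although its residual r was 0.67 without non-adhesive day 14 replicate 4. For Uck2 they were the mitochondrial carrier Slc25a16 (0.98), Acot9, an acyl-CoA thioesterase (0.97), and Ccar1 (0.96), and on residuals Rcan1, a regulator of calcineurin (0.89), Nacc1 (0.86) and Hip1r (0.81). For Cdkn1a they included Tmbim4 (0.93) and the transcription factor gene Runx1 (0.92), and on residuals they were Ets2, another transcription factor gene (0.77), Ier3, an immediate early gene (0.76), and Eny2 (0.71). None of the genes named for Uck2 or Cdkn1a was among those closest to Cdk1.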

How the data were processed

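Per the labels and the study's methods, RNA of 16 abdominal wall samples was enriched for poly(A), demultiplexed with bcl2fastq 2.17, checked with FastQC, trimmed with Cutadapt, aligned with STAR and assigned to genes with featureCounts. The deposited files hold raw read counts, whole numbers for 32552 genes. The labels and the methods name different genome builds, so coordinates are those of the files; the strand setting is not given in the sources used here. The copy of the supplementary sheets read here gave symbols for 2007 genes. The paper describes the sheets as a complete list of expressed genes, so the copy may be partial. Genes named from the lists or for likeness come only from those with a symbol. The 4 genes and the 16 gene lists (331 genes) were chosen with earlier results of these data known. Named list genes were those passing with the largest change, up to 4 a list and comparison, otherwise up to 3 with the highest mean CPM, and for likeness the 3 highest r, of which some are not reported here.

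Counts were filtered (filterByExpr), scaled by TMM and fitted with edgeR 4.0.16 (robust quasi-likelihood) in R 4.3.3, each day alone for the implant comparison and all 16 libraries for day comparisons and the difference between days, with Benjamini-Hochberg adjustment. SE is the log2 fold change over the root of F. Log2 CPM used a prior count of 2. Alternatives were DESeq2 1.42.0, limma-voom 3.58.1, DESeq2 size factors, no filter, the replicate number as a block, 1 fit of all libraries and leaving out each library; scaling by library totals and DESeq2 without each library were chosen after seeing the data. Tests were run on simulated data with known changes. Day labels of the protocol and series text (day 10, day 17) differ from the sample descriptions, which were used.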

Additional observations from a re-analysis of the deposited data

Results flagged for a closer look

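Each of the 4 genes was checked in each group of 4 libraries for a single library far from the rest, by Dixon's ratio of gap to range. Of 16 checks, 2 stood out, where chance gives about 1 in 20. Cdk1 in non-adhesive day 3 replicate 2 was 13.2 CPM, below 24.4 to 26 CPM in the other three. Cdkn1a in adhesive day 3 replicate 3 was 363 CPM, above 312 to 318 CPM in the other three.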

How the results depend on the processing

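All values rest on 4 libraries a group, and day 14 values of Cdk1 and Pttg1 on as few as 7 and 8 reads. With DESeq2, 69 genes were called between implants on day 3, 474 on day 14 and 25 for the difference between days, and 1 of the 4 genes (Pttg1) on day 3; 9 replication genes passed as lower at non-adhesive interfaces. With library totals alone, 6 genes were called on day 14 (5 higher and 1 lower, 83.3% higher against 58.3% of 36), 2602 between days at adhesive interfaces, and at each interface 12 replication and 25 listed genes in all passed as lower. Its day log2 fold changes were -1.68 for Pttg1, -2.91 for Uck2 and -1.79 for Cdkn1a at adhesive interfaces, and -3.14 for Uck2 and -2.82 for Cdkn1a at non-adhesive interfaces. One fit of all 16 libraries called 216 genes on day 14. The causes were not tested.

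With 1 library left out, edgeR called 0 genes on day 3, 1 to 1151 on day 14 (1 without adhesive replicate 1, 1151 without non-adhesive replicate 4), 462 to 1570 and 744 to 1740 between days at adhesive and non-adhesive interfaces, and 0 to 3 for the difference between days; of the listed genes, 0 to 2 passed between implants on day 14. Listed genes passing as lower numbered 3 to 13 and 6 to 19 between days at adhesive and non-adhesive interfaces, with 1 to 5 and 3 to 6 mitosis and 0 to 6 and 0 to 8 replication genes. DESeq2 called 11 to 254 genes on day 3 and 276 to 1364 on day 14, 0 to 2 and 0 to 1 of the 4 genes, and 0 to 3 listed genes on each day. Pttg1 on day 14 and Cdk1 in the difference between days changed sign as given above.

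Whether replicate numbers pair the samples could not be settled from 4 numbers a day. Deviations of same-numbered samples correlated at -0.31, -0.31, 0.13 and 0.30 on day 3 and -0.34, 0.48, 0.25 and 0.17 on day 14. On day 14 adhesive replicates 2, 3 and 4 and non-adhesive replicate 2 matched their own number best. On day 3 only non-adhesive replicate 4 did. With the replicate block, 0 genes were called on day 3, 0 on day 14 and 0 for the difference between days; the log2 fold changes of the 4 genes on day 14 were then -0.75, 0.23, 0.50 and 0.94 for Cdk1, Pttg1, Uck2 and Cdkn1a.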
